A study of Mus musculus with 2 samples.

Results

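The JAK-STAT pathway was read through siRNA inserts against 34 of its genes, which lay on 88 of the 45037 probe sets of the array. The members were every probe set with exactly 1 gene symbol among 8 cytokine receptor chains, 4 JAK kinases, 6 STATs, 8 SOCS family inhibitors, 4 PIAS proteins and 4 tyrosine phosphatases counted among its brakes. All 34 genes were found, and no filter on low values was applied. A further pair of probe sets, each annotated with both Jak3 and Insl3, was left out by this rule.

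ANSO4E mouse neural stem cells, a line from a transgenic animal with a background of C57BL/6JxSJL/JF1 oocytes and BDF1 sperm, were infected with the GeneNet mouse 40K lentiviral siRNA library and kept in medium with EGF and basic FGF. The reference control cells carried the library and received no MNNG. The MNNG survivors carried the same library and had outlived 500 µM of the methylating agent MNNG (N-methyl-N′-nitro-N-nitrosoguanidine), with 15 min given for the exposure, and were then regrown and exposed again. Inserts from each population were labeled with biotin and hybridized to 1 Affymetrix GeneChip for the mouse genome (the control array and the survivor array), so every value below has no replicate and no p-value.

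Cytokines such as interleukin 6, LIF and the interferons bring receptor chains together, and the JAK kinases bound to those chains phosphorylate them and the STAT transcription factors. Phosphorylated STATs enter the nucleus and switch on target genes, among them those for SOCS proteins, which feed back on the receptors and kinases. PIAS proteins act on STATs in the nucleus, and tyrosine phosphatases remove the phosphate again. In neural stem cells, signals through gp130 and Stat3 are known for self-renewal and for the turn toward astrocytes.

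The arrays read library inserts and not the transcripts of the cells. Signals are on the log2 scale, and a difference is survivors minus reference control. A higher signal need not mean more insert sequence in the survivors. The hybridization controls, added in fixed amounts, also read higher on the survivor array, as described below. In bulk samples more cells with an insert and more insert transcript per cell cannot be told apart. The median signal of the members was 0.70 on the control array and 0.72 on the survivor array, beside 0.69 and 0.74 over all probe sets. As inserts and not transcripts were read, the cell type could not be checked from these arrays, whatever the signal at marker genes. Inserts against 9 marker genes of neural stem cells lay between 0.06 and 1.74 in the reference control at 20 probe sets. Of 68 probe sets for markers of neural stem cells, neurons, glia, microglia and endothelium, 3 exceeded 3 on the control array and 0 on the other. Among all 45037 probe sets these counts were 781 and 304. The 95th percentile of all probe sets was 1.79 on the control array and 1.72 on the survivor array. Directions are given as deposited. Centered on the hybridization controls, described below, all differences drop by 2.77 and all 88 members are lower in the survivors. These controls read 7.31 or more on the control array, so the shift was not measured at low signal.

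Of these 88 probe sets, 1 was bright and 87 were dim. The bright probe set, 1438562_a_at, belongs to Ptpn2, the T cell protein tyrosine phosphatase, which removes phosphate from JAKs and STATs. It read 8.04 on the control array and 10.79 on the survivor array, a difference of 2.75 or 6.73-fold. On the linear scale this is a signal of 263 against 1773. It ranked as number 46 of all probe sets in the reference control and number 3 in the survivors. The other 87 stayed at or below 2.21 on the control array and 2.47 on the survivor array. A log2 signal above 3 on either array was found for 2.08% of all probe sets.

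**Figure D1:**
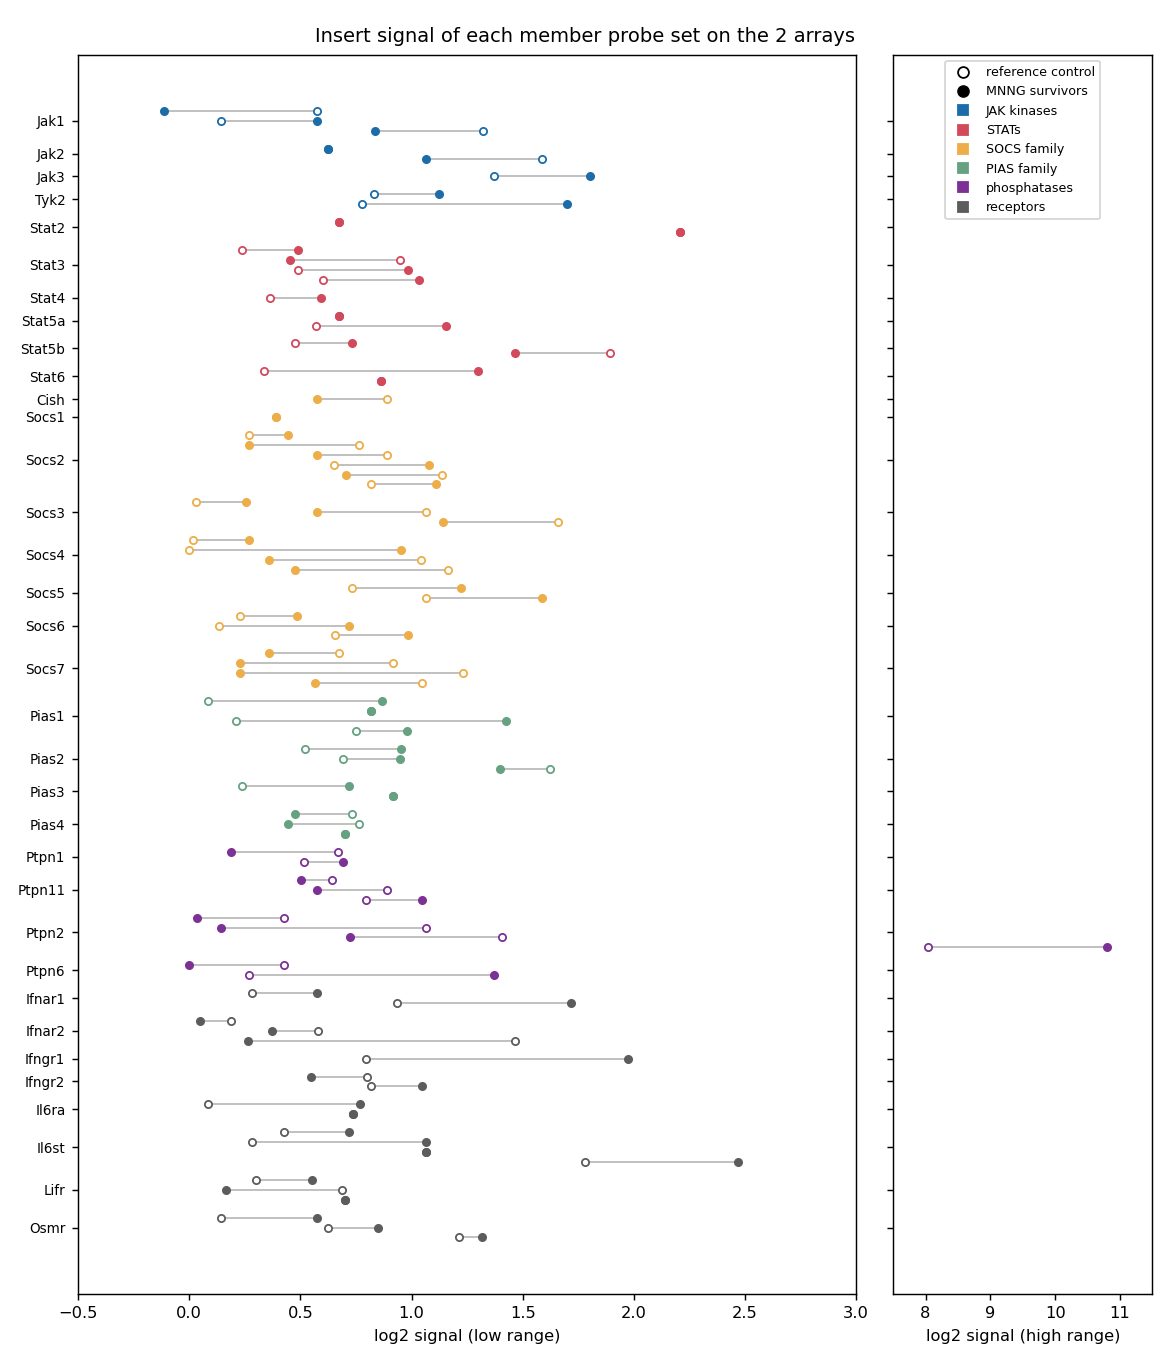
Log2 signal of inserts against each member gene (horizontal axis, split into a low and a high range with different scales), with 1 line per probe set, open circles for the reference control, filled circles for the MNNG survivors and colors for the class of the gene; a single visible circle means equal values. All probe sets lie below 2.5 but 1 of Ptpn2, at 8.04 and 10.79.

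The bright Ptpn2 probe set was the only member past both thresholds of the study, a signal above 1000 in the survivors and a log2 ratio above 2.5. Here they were applied to the deposited values, whereas the paper names the program supplied with the library for its signals. Ptpn2 is not among the genes that the paper lists as hits. These thresholds were passed by 0.00888% of all probe sets, and the ratio alone by 0.155%. The same gene had 3 further probe sets, and all of them were lower in the survivors. Their signals were 1.41 and 0.72 at 1425197_at, 1.07 and 0.14 at 1417140_a_at, and 0.43 and 0.03 at 1425198_at, which gave differences of -0.69, -0.92 and -0.39. The gain of Ptpn2 was thus seen at 1 of 4 probe sets.

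The gain was of the size seen in the hybridization controls, which are bacterial and phage sequences spiked into each hybridization in fixed amounts. All 18 were higher on the array of the survivors, by 0.08 to 3.86, with smaller differences at the brightest ones. Of these, 11 had a reference control signal within 1.5 of that of Ptpn2, and their differences ran from 2.59 to 3.86, with a median of 3.18. The difference of 2.75 for Ptpn2 was exceeded by 9 of these 11 and lay 0.43 below their median. Centered on all 18 controls, whose median difference was 2.77, the difference of Ptpn2 was -0.02. Of the 23 probe sets with a signal above 5 on both arrays, 17 were higher in the survivors and 8 exceeded the difference of Ptpn2. Probe sets above 5 on only 1 array are left out here, such as that of Crebbp with 7.12 and 0.72. The 23 therefore cannot show how bright probe sets differed in general. Among all probe sets, falls past 2.5 made up 1.01% and rises past 2.5 made up 0.155%. Quantile normalization gave 3.83 and loess 9.16 for the bright Ptpn2 probe set, so the size of the Ptpn2 value rests on the scaling. The part of the array scale in it was not tested further.

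**Figure D2:**
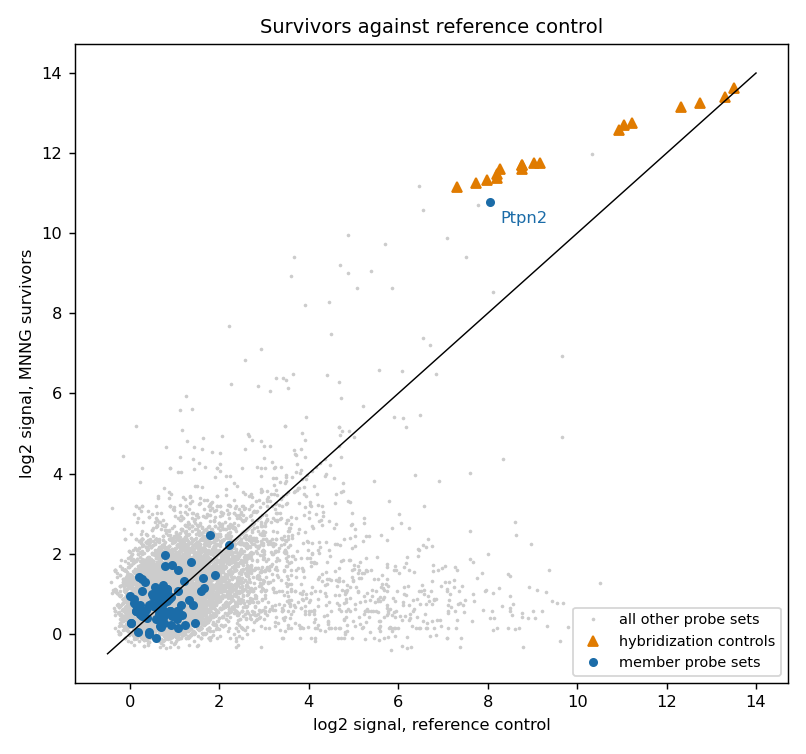
Log2 signal in the MNNG survivors (vertical axis) against the reference control (horizontal axis), with blue circles for the 88 member probe sets, orange triangles for the 18 hybridization controls, grey dots for all other probe sets and a line where both are equal. Ptpn2 lies just below the hybridization controls of similar reference signal, and the other members lie in the dim cloud.

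Dim values on these arrays came from a limited set of repeated numbers. In the reference control, 97.8% of the probe sets with a log2 signal below 1 shared their exact value with at least 1 other probe set, and 90.2% of those from 1 to 2 did. Above 3 this held for 7.68%. Among the members, 83 of 88 had such a shared value, beside 93.2% of all probe sets, and the bright Ptpn2 probe set did not. Differences repeated as well. The 88 members had 28 sizes of difference, with the sign ignored and rounded to 2 decimals, and 40 of the 88 had 1 of the 6 sizes that were commonest on the arrays (0, 0.25, 0.43, 0.14, 0.29 and 0.68), which together held 50.0% of all probe sets.

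**Figure D3:**
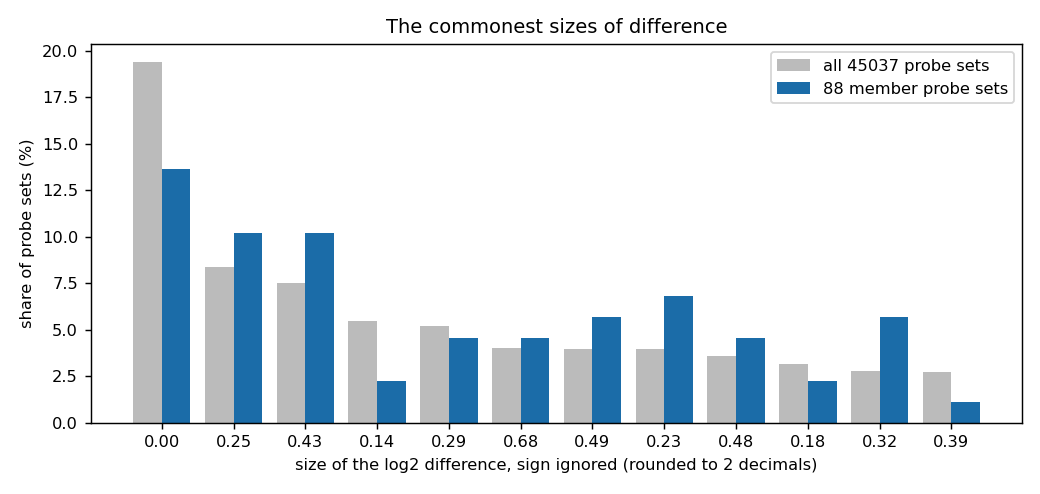
Share of probe sets in percent (vertical axis) with each of the 12 commonest sizes of log2 difference, with the sign ignored and rounded to 2 decimals (horizontal axis), for all 45037 probe sets (grey bars) and the 88 member probe sets (blue bars). Equal values on both arrays come first, at 19.4% of all probe sets and 13.6% of the members, and the members use the same few sizes as the rest.

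Members of the same class and of different classes had the same pair of values. Cish, an inhibitor induced by Stat5, Socs2 at 1418507_s_at and Ptpn11 at 1427699_a_at all had 0.89 on the control array and 0.57 on the survivor array, as did 336 probe sets of the array in all, to 3 decimals. Jak1 at 1433804_at and Osmr at 1418675_at had the same 0.14 and 0.57, a pair held by 262. Stat2 and Stat5a had 0.67 on both arrays at 1 probe set each, as did 328. Such members are tied, so the dim ones are given below by their levels on each array.

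Over all 88 member probe sets, 44 had the higher value on the survivor array, 32 had the lower and 12 had equal values, with a median difference of 0.05. Over all probe sets 44.2% were higher, 36.4% lower and 19.4% equal, with a median of 0.00, and for the members these shares were 50.0%, 36.4% and 13.6%. Differences of over 1, more than a doubling, were found at 4 member probe sets that were higher (Ptpn2, Pias1, Ifngr1 and Ptpn6) and 2 that were lower (Ifnar2 and Socs7). These are 4.55% and 2.27% of the members, beside 3.75% and 3.93% of all probe sets. Without the bright Ptpn2 probe set the median was 0.00, and 3 were higher by over 1. No member was lower by more than 2.5, which 1.01% of all probe sets were, and none mirrored the study's thresholds with a control signal above 1000, as 0.00444% did.

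**Figure D4:**
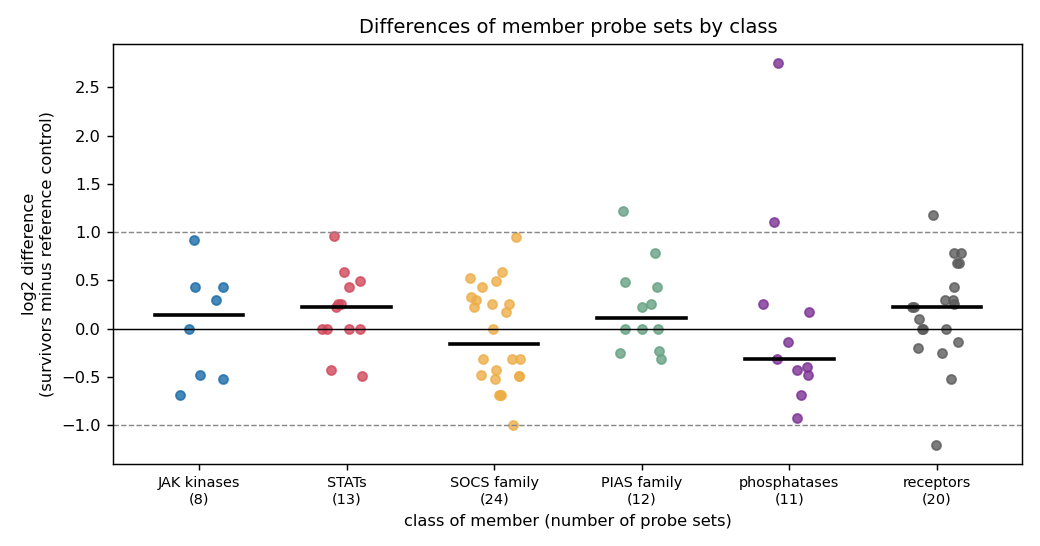
Log2 difference between the MNNG survivors and the reference control (vertical axis) for the member probe sets of each class (horizontal axis, number of probe sets in parentheses), with 1 point per probe set spread sideways for visibility, black bars for class medians and dashed lines at 1 and -1. Class medians lie between -0.32 and 0.23, and 1 phosphatase point, Ptpn2 at 2.75, stands above the rest.

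Among the receptors, 12 of 20 probe sets had more signal on the survivor array, 5 had less and 3 were equal, with a median difference of 0.23. Il6st encodes gp130, the signaling chain shared by the interleukin 6 family. Its probe set 1437303_at had the highest mean signal of the class, 1.78 on the control array and 2.47 on the survivor array, and its others had 0.28 and 1.07, 0.43 and 0.72, and 1.07 on both arrays. None of the 4 was lower in the survivors. Il6ra, the chain that binds interleukin 6, had 0.08 and 0.77 at 1 probe set and 0.74 on both arrays at the other. The 3 probe sets of Osmr, the oncostatin M receptor, were all higher, by 0.10 to 0.43. Lifr, the LIF receptor, had 1 higher, 1 lower and 1 equal, with differences from -0.52 to 0.25.

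Both receptor differences of over 1 were at interferon receptors, in opposite directions. Each is 1 of 20 receptor probe sets (5.0%), beside 3.75% of all probe sets higher and 3.93% lower by over 1. Ifngr1, which binds interferon gamma, had 0.80 on the control array and 1.97 on the survivor array at its only probe set, a difference of 1.18. Its partner chain Ifngr2 had differences of -0.25 and 0.23. Ifnar2, a chain of the receptor for type I interferons, had 1.46 and 0.26 at 1440169_x_at, a difference of -1.20. With a floor at the 25th percentile this difference was -0.96. The other Ifnar2 probe sets had differences of -0.21 and -0.14. Ifnar1, the other chain of that receptor, had 0.93 and 1.72 at 1449026_at and 0.28 and 0.57 at 1442222_at. For the type I receptor, all 3 probe sets of Ifnar2 were lower in the survivors and both of Ifnar1 were higher. The differences of -0.21 and -0.14 for Ifnar2 and 0.29 for Ifnar1 lay within 0.448, the measure of spread given below. Of all genes on the array with several probe sets, 12.9% were higher at each of them and 8.93% lower at each. Whether the 2 chains differ was not tested.

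None of the 8 probe sets of the JAK kinases differed by over 1, beside 3.75% of all probe sets higher and 3.93% lower. Of the 8, 4 (50.0%) were higher, 3 (37.5%) lower and 1 equal, beside 44.2% and 36.4% of all probe sets higher and lower. Jak3, the kinase of the common gamma chain of lymphocyte receptors, had the highest mean, with 1.37 on the control array and 1.80 on the survivor array. Tyk2, which serves the type I interferon receptor, had 0.78 and 1.70 at 1432576_at and 0.83 and 1.12 at 1417306_at. Jak1, which works with most of these receptors, had differences of -0.69, -0.48 and 0.43 over its 3 probe sets. Jak2, the kinase of the erythropoietin and growth hormone receptors, had 1.59 and 1.07 at 1421065_at and 0.62 on both arrays at 1421066_at. Jak2 had no higher probe set and Tyk2 no lower one.

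Of the 13 STAT probe sets, 7 (53.8%) were higher, 2 (15.4%) lower and 4 (30.8%) equal, beside 44.2%, 36.4% and 19.4% of all probe sets. Their median difference was 0.23. None passed 1, beside 3.75% of all probe sets higher and 3.93% lower by over 1. Stat3 is the STAT that gp130 activates, and the study lists it among its hits. At 1460700_at, the probe set of the sequence listed there, the signal was 0.95 on the control array and 0.45 on the survivor array, a difference of -0.49. The paper lists the opposite direction for this sequence, a gain with a log2 ratio above 2.5. Its listed signals are also far above the deposited values. The other Stat3 probe sets had 0.49 and 0.98, 0.60 and 1.03, and 0.23 and 0.49, with differences from 0.25 to 0.49. The probe set tied to the study's list was thus the only Stat3 probe set that was lower. Stat2, which joins the interferon response complex, had the highest mean of the class, 2.21 on both arrays, and was equal at its other probe set too.

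The remaining STATs lay in the same range. Stat6, which interleukin 4 activates, had 0.34 and 1.30 at 1421708_a_at, a difference of 0.96, and 0.86 on both arrays at 1426353_at. Stat5a and Stat5b are close relatives that carry prolactin and growth hormone signals. Stat5a had differences of 0.59 and 0, and Stat5b of 0.25 and -0.43. Stat4, known from interleukin 12 signaling, had 0.36 and 0.59 at its only probe set.

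The SOCS family was the largest class, with 24 probe sets and a median difference of -0.16. Of the 24, 11 (45.8%) had more signal on the survivor array, 12 (50.0%) less and 1 the same. Among all probe sets 44.2% had more and 36.4% less. All 4 probe sets of Socs7 were lower. Its signals were 1.23 and 0.23 at 1420766_at, 0.91 and 0.23 at 1434834_at, 1.05 and 0.57 at 1438492_at and 0.67 and 0.36 at 1455402_at, which gave differences from -1.00 to -0.32. Socs5 and Socs6 went the other way, with all 5 of their probe sets higher. Socs5 had 1.07 and 1.59 at 1423349_at and 0.73 and 1.22 at 1423350_at, and the differences of Socs6 ran from 0.25 to 0.59.

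Socs1 and Socs3 are the family members that block JAK kinases most directly. Socs1 had 0.39 on both arrays at its only probe set. Socs3 had the highest mean of the class at 1455899_x_at, with 1.66 on the control array and 1.14 on the survivor array, and differences of -0.49 and 0.23 at its other probe sets. Socs2, which restrains growth hormone signaling, had 3 probe sets higher and 3 lower, with differences from -0.49 to 0.43. Socs4 also split evenly, from -0.69 at 1421273_at, with 1.16 and 0.48, to 0.95 at 1455142_at, with 0.00 and 0.95. At Socs4, 3 probe sets of the same annotated sequence gave differences of -0.69, -0.68 and 0.25.

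Of the 12 PIAS probe sets, 6 were higher, 3 lower and 3 equal. Pias1, a SUMO ligase that binds activated STATs, had 0.21 on the control array and 1.43 on the survivor array at 1455611_at, a difference of 1.21. Its other differences were 0.78, 0.23 and 0.00, so no Pias1 probe set was lower. Pias2 had the highest mean, 1.62 and 1.40 at 1419454_x_at, and was higher at its other 2 probe sets. Pias3, named for its inhibition of Stat3, had 0.23 and 0.72 at 1 probe set and 0.92 on both arrays at the other. Pias4 had differences of -0.32, -0.25 and 0.00.

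Among the phosphatases, 7 of 11 probe sets (63.6%) had less signal on the survivor array and 4 (36.4%) more. Of all probe sets 36.4% had less and 44.2% more. The median difference of the phosphatases was -0.32. Ptpn6 encodes SHP-1, a brake on cytokine receptors in blood cells. It had 0.27 and 1.37 at 1456694_x_at, a difference of 1.10, and 0.43 and 0.00 at 1460188_at, a difference of -0.43. Ptpn11 encodes SHP-2, which also carries signals from receptors toward the MAP kinases. It had differences of -0.32, -0.14 and 0.25. Ptpn1, the closest relative of Ptpn2 among the members and a brake on insulin and leptin signaling, had 0.67 and 0.19 at 1417068_a_at and 0.52 and 0.69 at 1438670_at. Neither Ptpn1 probe set was bright.

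Probe sets of the same gene often disagreed in direction. By the paper, the library holds several different siRNA sequences per target transcript, so these probe sets may read different inserts. They are therefore not repeat readings of 1 insert. Of the 29 member genes with several probe sets, 13 (44.8%) had differences of both signs, 5 (17.2%) were higher at all of them and 2 (6.90%) lower at all of them. The 5 were Tyk2, Socs5, Socs6, Ifnar1 and Osmr, and the 2 were Socs7 and Ifnar2. Of 9010 genes on the array with several probe sets, 47.7% had both signs, 12.9% were higher at all and 8.93% lower at all. The median range of differences within a gene was 0.68 in the members and 0.68 in all such genes. These groups of genes were picked out after their values were seen.

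Taken by role, the inhibitors (SOCS, PIAS and phosphatases) had more signal on the survivor array at 21 of 47 probe sets and less at 22, with a median difference of 0.00. The receptors, JAKs and STATs had 23 of 41 higher and 10 lower, with a median of 0.23, which is itself 1 of the repeated sizes. As shares, 44.7% of the inhibitor probe sets had more signal and 46.8% less. For the receptors, JAKs and STATs these shares were 56.1% and 24.4%, and for the whole array 44.2% and 36.4%. Probe sets are not replicates of a condition, and the difference between the roles was not tested.

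The wider pathway was read from 5 lists of 125 genes, of which 111 were measured at 237 probe sets. Of these, 3 (1.27%) were higher in the survivors by over 1 and 16 (6.75%) lower by over 1, beside 3.75% and 3.93% of all probe sets. The median difference was 0.00 in each of the 5 lists. The differences of over 2.5 were both in the adaptors and coactivators. Crebbp, a histone acetyltransferase that STATs recruit, had 7.12 on the control array and 0.72 on the survivor array at 1459804_at, and differences of up to 0.52 over its 4 probe sets. Cul5, the cullin that SOCS proteins use to tag targets with ubiquitin, had 5.10 and 1.68 at 1456102_a_at, and up to 0.18 over 3 probe sets. Ncoa1, a coactivator of nuclear receptors, had 0.81 and 2.73 at 1418594_a_at, with a low of -0.48 over 3. The paper lists Ncoa1 among its hits, as a gain, with signals far above these.

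Among 56 probe sets of target genes, 1 (1.79%) was higher by over 1 and 5 (8.93%) were lower, beside 3.75% and 3.93% of all probe sets. Pim3, a survival kinase, had 4.78 and 2.37 at 1438956_x_at and 2.37 and 0.14 at 1437100_x_at, with its 3 probe sets between -2.41 and 0.00. Gfap, the astrocyte filament that Stat3 switches on, had 3.45 and 1.57 at 1440142_s_at, with its 3 probe sets between -1.89 and 0.00. Among 32 probe sets of cytokines and interferons, 1 (3.1%) was lower by over 1, that of Il12b with 3.20 and 2.00. The other Il12b probe set was equal on both arrays. The next in size were Il2 with 1.47 and 0.64 and growth hormone, Gh, with 0.28 and 1.07.

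Among 49 probe sets of other cytokine receptors, 2 (4.08%) were lower by over 1, beside 3.93% of all probe sets. These were Il5ra, of the interleukin 5 receptor, with 1.54 and 0.10, and Il10ra, of the interleukin 10 receptor, with 1.45 and 0.28. Il31ra had 0.28 and 1.19. Of 51 probe sets of other protein tyrosine phosphatases, 3 (5.88%) were lower by over 1 and 0 higher, beside 3.93% and 3.75% of all probe sets. They were those of Ptpn14 with 2.37 and 1.07, Ptprd with 1.76 and 0.58 and Dusp3 with 1.57 and 0.56. Differences reached 0.26 over the 3 probe sets of Ptpn14, 0.29 over the 7 of Ptprd and 0.00 over the 3 of Dusp3. No probe set of these 19 related genes exceeded 2.37 in the reference control or 2.20 in the survivors. A signal above 3 on either array was rare throughout, at 2.08% of all probe sets. Whether Ptpn2 stands apart from its relatives was not tested.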

How the data were processed

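Inserts of both populations were read on 1 array each. The values are log2 signals for each probe set, as deposited. RMA is named in the processing notes of the submitters, with its version not given in the sources used here. In the paper, the program supplied with the library, quantile normalization and R are named. The deposited values do not have the same distribution on both arrays. Above 3 lay 781 probe sets on the control array and 304 on the survivor array. The labels name genomic DNA as the source of the inserts, and the paper names RNA. No sequences of the siRNAs or of the array probes were used here. Control probe sets (64) were set aside and 45037 were kept. Names came from the array annotation, with 34945 probe sets of 1 symbol, 932 of several and 9160 of none. For 34741 of them the current symbol was taken by gene ID from GRCm38.p6, used for names only.

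Differences, counts and medians were computed with Python 3.11.15, numpy 2.4.6, pandas 2.3.3 and statsmodels 0.14.6. Equal and shared values were equal to all deposited digits, and shared pairs to 3 decimals. With 1 array per condition no test was possible, the number of arrays limits the precision, and depth does not apply. The members and lists were chosen with earlier results of these data known. Probe sets were named when they differed by over 1, had a signal above 3, had the highest mean of their class or carried the study's accession of Stat3. In the wider lists these were the 3 of largest difference. Other members are given so that each gene is accounted for. Steps were tested on simulated data with 200 probe sets changed. The simulation had less noise than these arrays and no shift of the hybridization controls. It checks the code and cannot show which scaling suits these arrays.

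The alternatives were median centering, quantile normalization, loess (fraction 0.3), a floor at the 25th percentile, centering on the 18 hybridization controls, a filter on mean signal, leaving out probe sets named _x_at or _s_at, 1 probe set per gene, unaltered symbols and other thresholds.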

Additional observations from a re-analysis of the deposited data

How the results depend on the processing

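Centering on the hybridization controls changed the most. It put the median difference over the members at -2.72, with 0 member probe sets higher by over 1, 87 lower and 0 past the study's thresholds. The 4 gains of over 1 then turned, to -0.015 for Ptpn2, -1.55 for Pias1, -1.67 for Ptpn6 and -1.59 for Ifngr1. For Ptpn2, centering on the controls of similar signal, chosen after seeing the data, gave -0.43. With quantile normalization its difference was 3.83 and with loess 9.16, and Il6st at its brightest probe set went from 0.68 to 1.25 with quantile normalization. A floor at the 25th percentile left 2 higher by over 1 and 0 lower.

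The median was 0.23 over probe sets of at least median mean signal, 0.18 without _x_at and _s_at (with 1 lower by over 1) and 0.24 when each gene was taken at its dimmest probe set, which left 1 higher by over 1, 0 lower and 0 past the thresholds. At the brightest probe set of each gene 1 was lower by over 1. Over 0.5, 15 were higher and 11 lower, and over 2 these were 1 and 0. A log2 ratio above 3 or a signal above 2000 left 0 members past the thresholds. Of the changes to the 12 named probe sets, 45 moved the value by less than 0.448 (the scaled median absolute deviation over the arrays), 11 moved it further and 5 turned a gain of over 1. Of the 11, 2 also changed sign when centered on the hybridization controls, to -2.34 for Jak3 and -2.08 for Il6st. No paired analysis was possible because each condition has 1 array.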
